A study of Mus musculus with 4 samples.

Results

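The Wnt pathway genes described here are 60 genes for Wnt ligands, their receptors, secreted inhibitors, R-spondins, polarity proteins and transcriptional targets. They were chosen by symbol: every non-control probe bearing the name of a listed gene was taken, which gave 76 probes, out of 39395 probes and 31875 gene or transcript names on the arrays. Wnt proteins are secreted lipid-modified signals that bind a Frizzled receptor and, in the beta-catenin branch, an Lrp5 or Lrp6 co-receptor; beta-catenin then spares degradation and joins Tcf and Lef factors on DNA. R-spondins, acting through Lgr receptors, remove the ligases Rnf43 and Znrf3 that clear Frizzled from the surface, and so raise Wnt sensitivity. In the developing kidney, Wnt9b from the ureteric bud acts on the cap mesenchyme, where nephron progenitors either renew or turn into epithelium, a step that also needs Wnt4.

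One-colour arrays measured RNA from cells of Six2GFP mouse kidneys at E15.5, on a mixed 129 and C57BL/6 background, which were split by flow sorting. Six2GFP(+) cells, 2 arrays, carry green fluorescence under the name of Six2, the transcription factor that keeps nephron progenitors undifferentiated. Six2GFP(-) cells, 2 arrays, are what the sort left over, so they are a mixture whose makeup the labels do not give. The labels do not describe the reporter allele or say whether embryos were pooled, call the negative cells nephron progenitors too, and mention tamoxifen in a description field but in no protocol, so no treatment is assumed.

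The reporter's own gene differed with the sort. Six2 had log2 signals, each given relative to its array's 75th percentile, of 5.58 and 5.74 in positive cells and -0.17 and -0.15 in negative cells (adjusted p = 5.00e-04). Cited1, a marker of the least differentiated cap mesenchyme, had 5.38 and 5.12 in positive cells and 0.29 and 0.61 in negative cells (adjusted p = 5.80e-04). The groups did not overlap for either gene, and positive cells were higher by 56.5-fold and 27.9-fold. The summed linear signal of 10 progenitor markers was 208 and 203 times the array's 75th percentile on the positive arrays, against 51.5 and 53.0 on the negative arrays. The sum of 12 ureteric bud markers, Wnt11 among them, reached 9.96 and 8.12 in positive cells, against 52.0 and 62.3 in negative cells. For 12 stromal markers it was 16.0 and 13.2 in positive cells against 118 and 109 in negative cells, and for 12 early nephron markers 10.6 and 10.7 against 52.2 and 61.6. The brightest early nephron marker was Ccnd1, with log2 signals of 2.46 and 2.45 in positive cells and 4.68 and 4.90 in negative cells. Ccnd1 is also counted below among the Wnt targets. Podocyte markers summed to 0.846 and 0.795 in positive cells against 6.79 and 6.02 in negative cells, endothelial markers to 10.3 and 9.95 against 39.8 and 39.0, and leukocyte markers to 7.92 and 5.46 against 13.4 and 10.3. Proximal tubule markers summed to 2.54 and 2.06 in positive cells against 17.4 and 18.9 in negative cells, and erythroid markers, 2 of 7 of them not well above background in positive cells, to 0.304 and 0.404 against 16.8 and 17.8. The linear sums weigh the brightest genes most, and some of these did not pass. Examples are Eya1 (progenitor), Hoxb7 (ureteric), Kdr (endothelial) and Csf1r (leukocyte), with adjusted p from 0.120 to 0.736. Fgf8 (early nephron) and Ren1 (stroma) were higher in positive cells. Called lower were 11 of 12 ureteric, 10 of 12 stromal and 11 of 12 early nephron markers. So were 9 of 10 endothelial and 4 of 9 leukocyte markers, against 18.3% of all genes. Most of these markers gave signal in positive cells: all 12 ureteric, 11 of 12 stromal and 11 of 12 early nephron markers were well above background on both positive arrays. Of all spots, 75.2% and 72.5% were well above background on the positive arrays. Whether these cell types were present among the positive cells was not tested. The part of these cell types in the Wnt results was not tested. In sorted bulk RNA, fewer cells of a type and less RNA per cell cannot be told apart.

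The sequences below identify what was measured for the genes on which the results turn. The first set gives the opening 30 bases of 60-base probes, in the 5′ to 3′ direction and in lower case throughout, with their mm9 positions. Rspo1 and Rspo3 are shown as the members with the largest differences upward, Lef1 as the nuclear factor with the largest difference downward, and Fzd5, Fzd7, Nkd2 and Wnt16 because their 2 probes gave different results.
Rspo1, chr4:124686270-124686329, plus strand: ccgtggtacacgtcacggatgacctgactt
Rspo3, chr10:29172930-29172989, minus strand: ggatactactttctaacaaggtgtatctag
Lef1, chr3:130907851-130926012, plus strand: gtacaggtcccagaatgacagctgcctaca
Fzd5 near probe, chr1:64781972-64782030, minus strand: acggggacccagtggctggcatctgctatg
Fzd5 far probe, chr1:64779479-64779538, minus strand: aatttcagtggcttccacaagaccttgtac
Fzd7 near probe, chr1:59541367-59541426, plus strand: agccccgactttacagtcttcatgatcaag
Fzd7 far probe, chr1:59543192-59543251, plus strand: aagggaaggtgaacttcaaagtgattctgg
Nkd2 near probe, chr13:73957581-73957640, minus strand: tgagtttatgaaagttgggcatgatgcctt
Nkd2 far probe, chr13:73956776-73956835, minus strand: tccaacaccctcacacagacatacatgtag
Wnt16 near probe, chr6:22241135-22241194, plus strand: aaacaccacaggaaaagaaagcagagtcct
Wnt16 far probe, chr6:22247804-22247863, plus strand: acggagtttccggctcctgtgctgtgaaaa
Near and far say which probe lies closer to the 5′ end of its transcript. The Lef1 interval is longer than its 60-base probe.

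The second set gives the 250 bases before the annotated start of 4 members, from RefSeq on GRCm38.p6, and was searched for the Tcf/Lef core letters CTTTGAT and CTTTGTT on both strands. Rspo1 and Axin2 were higher in positive cells, Wnt11 was the ligand with the largest difference downward, and Fzd7 carries a match. Capitals mark a match, read here on the gene's own strand as ATCAAAG in Wnt11 and AACAAAG in Fzd7.
Rspo1, chr4:124986180-124986429, plus strand: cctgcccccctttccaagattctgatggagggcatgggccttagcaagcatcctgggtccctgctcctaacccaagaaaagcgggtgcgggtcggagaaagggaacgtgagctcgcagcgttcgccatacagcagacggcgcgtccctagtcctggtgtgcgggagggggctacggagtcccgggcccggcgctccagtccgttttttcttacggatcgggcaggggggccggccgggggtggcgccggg
Axin2, chr11:108920099-108920348, plus strand: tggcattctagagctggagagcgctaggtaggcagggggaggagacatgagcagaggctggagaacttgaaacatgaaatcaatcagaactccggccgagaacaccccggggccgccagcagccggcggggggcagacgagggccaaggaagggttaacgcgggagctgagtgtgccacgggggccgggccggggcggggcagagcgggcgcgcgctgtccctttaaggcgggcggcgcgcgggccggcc
Wnt11, chr7:98834862-98835111, plus strand: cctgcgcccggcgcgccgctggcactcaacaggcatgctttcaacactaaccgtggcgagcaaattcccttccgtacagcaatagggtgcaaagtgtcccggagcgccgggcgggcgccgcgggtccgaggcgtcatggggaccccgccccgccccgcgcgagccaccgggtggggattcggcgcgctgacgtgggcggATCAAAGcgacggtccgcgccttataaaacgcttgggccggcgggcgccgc
Fzd7, chr1:59481897-59482146, plus strand: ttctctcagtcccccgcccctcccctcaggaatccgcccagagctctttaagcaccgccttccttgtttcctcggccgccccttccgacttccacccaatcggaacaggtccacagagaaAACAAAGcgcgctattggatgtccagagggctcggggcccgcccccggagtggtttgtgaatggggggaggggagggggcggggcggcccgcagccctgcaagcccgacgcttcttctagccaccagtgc
The promoter table held 50 entries for 39 of the 60 members. CTTTGAT occurred in 2 of them, Wnt11 and Wnt5b, and in 3.21% of all 32851 promoter entries. CTTTGTT occurred in 2, Fzd7 and Tcf7l2, and in 5.03% of all. A second entry for Wnt11 held neither. No match says only that these letters are not in this window.

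Of the 60 members, 55 were measured well above background by both arrays of one or other population and could be tested, 51 of them on all 4 arrays. Between Six2GFP-positive and Six2GFP-negative cells, 9 were higher and 29 lower at a limma adjusted p of 0.05, against 20.7% and 18.3% of all 24150 genes tested called higher and lower (38.9% in all). Restricted to at least 2-fold, 5 members were higher and 24 lower, against 3.63% and 12.7% of all genes (16.4% in all). The median log2 difference, positive minus negative, was -0.58 over the tested members and 0.15 over all genes. The filter admits a gene through either group, so these counts describe the tested members and not all 60. Centring on the array median moved the median of all genes by 0.25 and gave 14 members higher and 25 lower, 5 of the 14 being Ctnnb1, Fzd3, Fzd7, Lrp6 and Vangl2, none of which the reported fit called. With any 1 of the 4 arrays left out, 5 members were higher: Rspo1, Rspo3, Fzd2, Ryk and Tcf7l1.

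**Figure D1:**
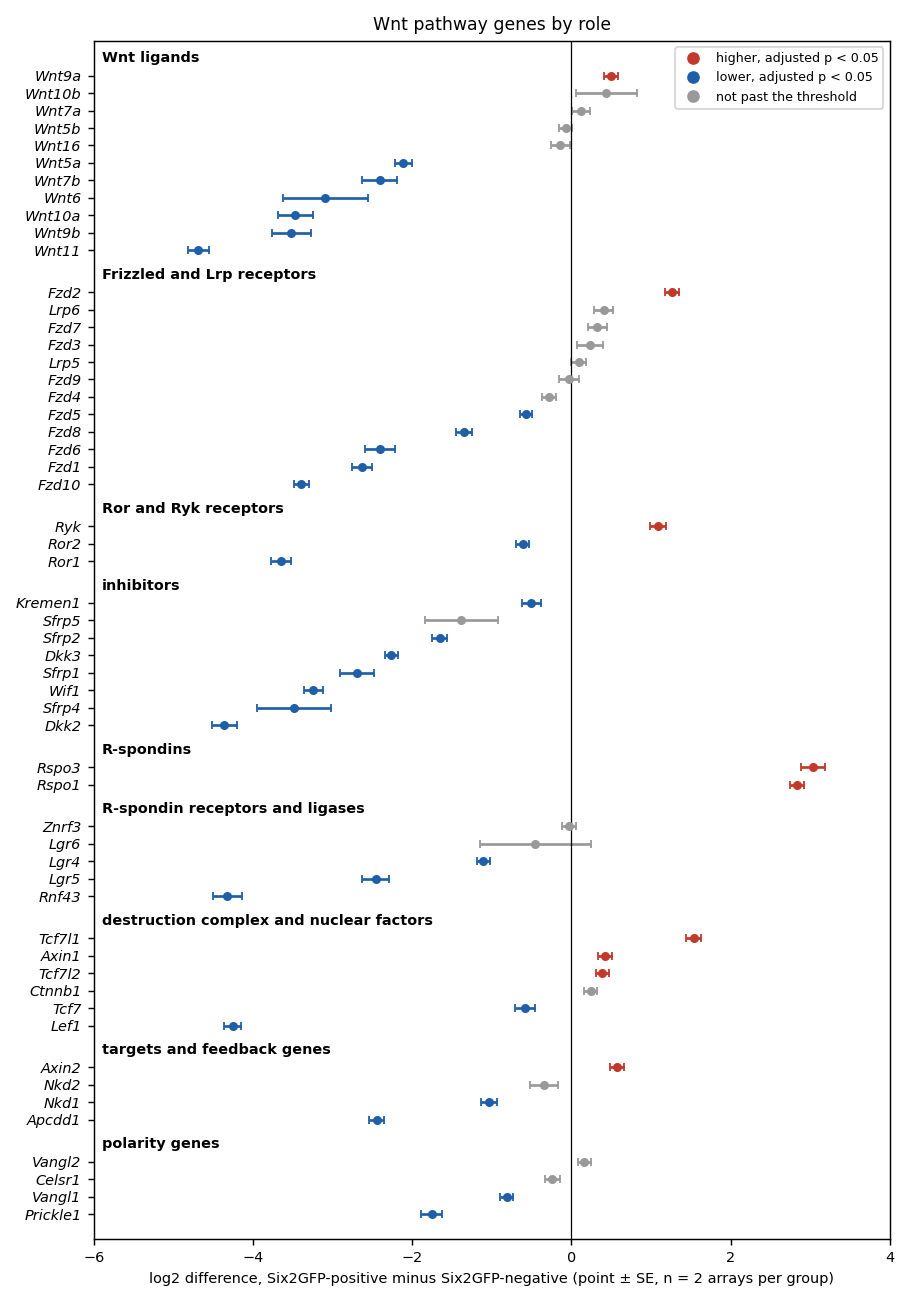
Difference in log2 signal (positive minus negative, point ± SE, n = 2 arrays in each group) of the 55 tested Wnt pathway genes, grouped by role, with colour marking the limma call. Rspo3 and Rspo1 stand furthest right at 3.03 and 2.83, and Wnt11 furthest left at -4.69. The points of Wnt10a and Ror1 carry no exact size, as neither was well above background in positive cells.

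**Figure D2:**
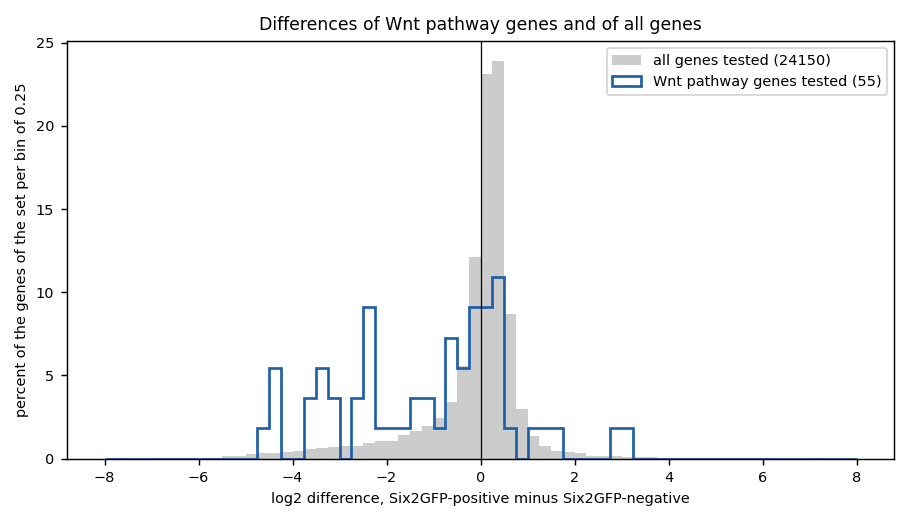
Share of genes per bin of log2 difference (positive minus negative) for the 55 tested Wnt pathway genes, drawn as a line, and for all 24150 genes, drawn as filled bars. All genes gather around a median of 0.15, while the Wnt pathway genes spread to the left with a median of -0.58.

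R-spondins were the role whose 2 tested members were both higher in positive cells, where 20.7% of all genes were called higher. Rspo1 had log2 signals of 4.92 and 4.91 in positive cells and 2.04 and 2.12 in negative cells, and was 7.12-fold higher (2.83 ± 0.09 on the log2 scale, ± SE here and below, n = 2 arrays in each group; limma adjusted p = 5.15e-04). Rspo3 had 2.02 and 1.73 in positive cells and -1.06 and -1.26 in negative cells, an 8.19-fold difference (3.03 ± 0.15, adjusted p = 9.63e-04). For each gene the groups were far apart and the 2 arrays of a group close together. Both kept their call in all 14 alternative analyses, at 2.64 to 3.09 for Rspo1 and 2.89 to 3.29 for Rspo3. The other two R-spondin genes were not well above background on any array: Rspo2 lay between -9.39 and -8.64 and Rspo4 between -8.13 and -6.66 over the 4 arrays.

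The receptors and ligases on which R-spondins act were lower or did not pass. Rnf43, the ligase that removes Frizzled and is itself a Wnt target, had -4.33 and -4.77 in positive cells and -0.30 and -0.15 in negative cells, 20.0-fold lower (-4.33 ± 0.19, adjusted p = 7.65e-04). Lgr5, an R-spondin receptor and Wnt target, had -2.63 and -2.22 in positive cells and 0.04 and 0.02 in negative cells, 5.51-fold lower (-2.46 ± 0.17, adjusted p = 0.00193). Lgr4, its widely expressed relative, had -2.04 and -2.11 in positive cells against -0.98 and -0.97 in negative cells, 2.15-fold lower (-1.11 ± 0.08, adjusted p = 0.00260). In these 3 genes, each called lower, every positive array was below every negative one, which is no further test. The Rnf43 difference was -3.36 and -3.32 with normexp. Znrf3, the ligase related to Rnf43, had -3.67 and -3.58 in positive cells and -3.63 and -3.56 in negative cells, so the groups overlapped (-0.03 ± 0.09, adjusted p = 0.805). Lgr6 could not be placed, since its positive arrays, at -5.98 and -6.17, lay between its negative arrays at -4.65 and -6.59 (-0.45 ± 0.70, adjusted p = 0.635).

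Of 14 Wnt ligands, 11 were tested, 6 were lower in positive cells and 1 was higher, against 18.3% and 20.7% of all genes. Wnt11, the ligand of ureteric bud tips, had -3.54 and -3.82 in positive cells and 1.008 and 1.004 in negative cells, 25.8-fold lower (-4.69 ± 0.13, adjusted p = 5.00e-04). Wnt9b, the inducing signal of the bud, had -4.77 and -5.35 in positive cells and -1.70 and -1.39 in negative cells, 11.5-fold lower (-3.52 ± 0.25, adjusted p = 0.00210). Both ligands of the bud were thus separated by several log2 units. Wnt10a was not well above background on either positive array, at -8.84 and -9.10, and stood at -5.77 and -5.24 in negative cells, 2.91-fold lower by a bound (adjusted p = 0.00175). The bound sets each positive array at the lowest signal counted as above background there, or at the gene's own reading where that is higher. That lowest signal comes from all probes of the array, so it is no detection limit of the gene's own probe. The bound holds for these values only: with normexp background correction the log2 difference was -0.38 or -0.46. Normexp also gave smaller differences for Wnt11 (-4.06 and -4.05) and Wnt9b (-2.29 and -2.22), with the 75th percentile and with quantile normalization. Wnt5a, a ligand best known for signalling without beta-catenin, had -1.27 and -1.08 in positive cells against 0.99 and 0.89 in negative cells, 4.33-fold lower (-2.12 ± 0.11, adjusted p = 0.00106). Wnt7b, which is needed for the renal medulla, differed by -2.41 ± 0.22 (adjusted p = 0.00394), and by -0.97 and -0.96 with normexp.

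Wnt6 and Wnt10a are direct neighbours on chromosome 1, with no coding gene between them in RefSeq and probes 19172 bases apart on mm9. Both were lower in positive cells. Wnt6 had -5.58 and -4.37 in positive cells and -2.31 and -1.45 in negative cells (-3.09 ± 0.54, adjusted p = 0.0197), a call lost without negative array 1 (0.0528) or 2 (0.0803). Its difference was -1.97 and -1.88 with normexp, -2.49 without positive array 1 and -3.70 without positive array 2. Wnt9b and Wnt3 are likewise neighbours, on chromosome 11, with probes 90156 bases apart, but Wnt3 was not well above background on any array. Wnt2 and Wnt2b were also below that level on all 4 arrays. All 3 lay between -9.45 and -7.09. Of the other neighbouring Wnt pairs, Wnt10b and Wnt1 on chromosome 15 did not pass (0.44 ± 0.38 and 0.24 ± 0.11). Wnt3a, next to Wnt9a on chromosome 11, was not kept by the background filter.

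Wnt9a was the ligand that was higher, with -2.37 and -2.46 in positive cells and -2.90 and -2.92 in negative cells, 1.41-fold (0.49 ± 0.09, adjusted p = 0.0205). The groups did not overlap, but leaving out any 1 array ended the call (adjusted p from 0.0711 to 0.109). Wnt5b had 1.30 and 1.30 in positive cells and 1.34 and 1.41 in negative cells, and did not pass (-0.07 ± 0.08, adjusted p = 0.518). Wnt7a (0.12 ± 0.11) and Wnt10b (0.44 ± 0.38) did not pass either, and their groups overlapped. The 2 Wnt16 probes disagreed. In the fit across single probes, 39.3% of all 30012 probes were called. The far probe, used in the fit across genes, had -3.53 and -3.67 in positive cells against -3.37 and -3.56 in negative cells (-0.14 ± 0.12, adjusted p = 0.392). The near probe did not clear background in positive cells, at -7.11 and -7.22, and read -5.12 and -5.28 in negative cells (probe adjusted p = 0.00109).

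Frizzled and Lrp receptors were divided. All 12 were tested: 5 were lower, 1 was higher and 6 did not pass. Of all genes, 18.3% were called lower and 20.7% higher. Fzd2 was the receptor that was higher, with 3.79 and 3.84 in positive cells and 2.58 and 2.52 in negative cells, 2.40-fold (1.27 ± 0.08, adjusted p = 0.00189). Its other probe gave the same direction (1.54 ± 0.13, probe adjusted p = 0.00304). Among the lower ones, Fzd10 had -2.61 and -2.49 in positive cells and 0.82 and 0.88 in negative cells, 10.5-fold lower (-3.40 ± 0.09, adjusted p = 5.00e-04). Fzd1 had 0.28 and 0.48 in positive cells against 2.91 and 3.12 in negative cells, 6.20-fold lower (-2.63 ± 0.13, adjusted p = 9.72e-04). Fzd6 had -3.98 and -4.42 in positive cells against -1.70 and -1.88 in negative cells, 5.30-fold lower (-2.41 ± 0.19, adjusted p = 0.00274). The groups of these 4 genes were separated by more than the arrays within a group differed. As all 4 were named because they passed the threshold, this is no further test. Fzd6 differed by -1.73 and -1.63 with normexp. Fzd8 was also lower (-1.35 ± 0.10, adjusted p = 0.00217).

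Fzd7 and Fzd5 depended on the probe. The far Fzd7 probe, used in the fit across genes, had 0.70 and 0.95 in positive cells and 0.48 and 0.53 in negative cells (0.32 ± 0.12, adjusted p = 0.107; 0.00958 with the mean of its probes). The near Fzd7 probe had 0.75 and 0.81 in positive cells and -0.40 and -0.43 in negative cells (1.20 ± 0.09, probe adjusted p = 0.00205). Both probes were therefore higher in positive cells, one of them past the threshold. For Fzd5 the near probe, in the fit, differed by -0.57 ± 0.08 (adjusted p = 0.0123) and the far probe by -2.50 ± 0.23 (probe adjusted p = 0.00368). The near-probe call ended without any 1 array (adjusted p from 0.0547 to 0.0765) and under both other scalings and both normexp settings (0.0700 to 0.189). Of the remaining receptors, Lrp6, the main co-receptor of the beta-catenin branch, had 2.65 and 2.90 in positive cells and 2.33 and 2.42 in negative cells (0.40 ± 0.12, adjusted p = 0.0701). Its second probe passed (0.45 ± 0.08, probe adjusted p = 0.0226), and Lrp6 was also called higher with the array median, normexp at the 75th percentile (adjusted p = 0.0487), the mean of its probes (0.0330) and an intensity trend. Its relative Lrp5 (0.09 ± 0.09), Fzd3 (0.23 ± 0.16), Fzd4 (-0.28 ± 0.09) and Fzd9 (-0.03 ± 0.13) did not pass. Fzd4 was called lower with quantile normalization, both normexp settings and an intensity trend (adjusted p from 0.00955 to 0.0354).

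**Figure D3:**
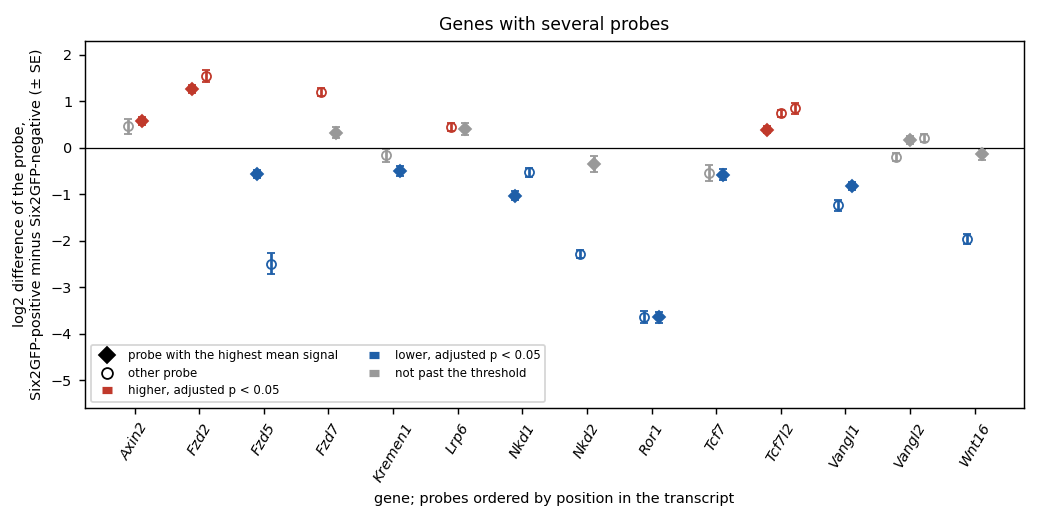
Difference in log2 signal (positive minus negative, ± SE, n = 2 arrays in each group) of each probe of the 14 members with several probes above background, ordered along the transcript. Filled diamonds are the probes used in the fit across genes. Probes of Fzd5 and Nkd2 lie over 1 log2 unit apart; both Ror1 probes and the near Wnt16 probe were not well above background in positive cells, so their points carry no exact size.

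Ryk, Ror1 and Ror2 are single-pass Wnt receptors tied to the branches that do not use beta-catenin. Ryk had 2.52 and 2.62 in positive cells and 1.40 and 1.55 in negative cells, 2.13-fold higher (1.09 ± 0.10, adjusted p = 0.00440). Ror1 did not clear background in positive cells, at -6.92 and -7.18, against -3.37 and -3.43 in negative cells, 11.8-fold lower by the bound described for Wnt10a (adjusted p = 5.67e-04). Its second probe did not clear background in positive cells either, at -7.39 and -7.28, against -3.56 and -3.82 in negative cells. The Ror1 bound holds for these values only: normexp background correction gave log2 differences of -1.37 and -1.38. Ror2 had 0.79 and 0.82 in positive cells and 1.40 and 1.44 in negative cells, 1.53-fold lower (-0.61 ± 0.08, adjusted p = 0.0109). The 3 receptors, all past the threshold, went in opposite directions, with Ryk higher and the Ror genes lower. The Ror2 call ended without positive array 1 (adjusted p = 0.0680), positive array 2 (0.0650) or negative array 2 (0.0546), and with centring on the array median (0.0594).

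Of the 8 inhibitors all were tested, 7 were lower and none higher, against 18.3% and 20.7% of all genes. Dkk2, a secreted ligand of Lrp5 and Lrp6, had -5.74 and -6.11 in positive cells and -1.54 and -1.59 in negative cells, 20.6-fold lower (-4.36 ± 0.16, adjusted p = 5.86e-04). Wif1, which binds Wnt proteins directly, had -5.59 and -5.71 in positive cells against -2.52 and -2.30 in negative cells, 9.46-fold lower (-3.24 ± 0.12, adjusted p = 6.10e-04). Sfrp4, a soluble Frizzled-like protein, had -6.99 and -6.19 in positive cells, only the second of which was well above background, and -3.60 and -2.61 in negative cells (-3.49 ± 0.46, adjusted p = 0.0104). The groups did not overlap for any of these 3 inhibitors, which were named for the size of their differences. With normexp their differences were smaller, at -2.65 and -2.62 for Dkk2, -1.79 and -1.72 for Wif1 and -1.51 and -1.49 for Sfrp4. Sfrp1 (-2.70 ± 0.21), Dkk3 (-2.26 ± 0.09), a divergent member of its family, and Sfrp2 (-1.66 ± 0.09) were lower as well, with adjusted p from 6.20e-04 to 0.00267. Kremen1, a Dkk receptor, differed by -0.50 ± 0.11 (adjusted p = 0.0367), a call that ended with each of the 4 arrays left out in turn (0.0668 to 0.150) and with the array median (0.215). The second Kremen1 probe did not pass (-0.17 ± 0.15, probe adjusted p = 0.413). Sfrp5 was the inhibitor that did not pass: its positive arrays stood apart at -3.76 and -5.02, against -2.91 and -3.10 on the negative arrays (-1.38 ± 0.46, adjusted p = 0.0840; 0.00732 without positive array 1 and 0.0399 with normexp at the 75th percentile).

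The nuclear factors went in opposite directions. Lef1, a DNA-binding partner of beta-catenin and itself a target, had -4.03 and -3.99 in positive cells and 0.16 and 0.34 in negative cells, 19.2-fold lower (-4.26 ± 0.10, adjusted p = 5.00e-04). Tcf7l1, the family member that acts mainly as a repressor, had 1.79 and 1.81 in positive cells and 0.20 and 0.33 in negative cells, 2.90-fold higher (1.53 ± 0.09, adjusted p = 0.00145). Both calls held in all 14 alternative analyses, at -4.35 to -3.45 for Lef1, whose smallest values came with normexp, and 1.43 to 1.79 for Tcf7l1. Tcf7 had -2.08 and -2.09 in positive cells against -1.63 and -1.38 in negative cells (-0.58 ± 0.12, adjusted p = 0.0289), and Tcf7l2 had -1.11 and -1.13 against -1.49 and -1.52, 1.31-fold higher (0.39 ± 0.08, adjusted p = 0.0304). The other 2 Tcf7l2 probes gave 0.74 ± 0.08 and 0.85 ± 0.12 (probe adjusted p = 0.00641 and 0.0127). The second Tcf7 probe gave -0.54 ± 0.17 and did not pass (probe adjusted p = 0.0733). The Tcf7l2 call ended with each array left out (0.0841 to 0.140) and with the replicate number as a block (0.0505); the Tcf7 call ended without positive array 1 (0.113), positive array 2 (0.118) or negative array 2 (0.0752) and with the array median (0.130) or quantile normalization (0.0746).

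In the complex that degrades beta-catenin, the scaffold Axin1 had 0.52 and 0.46 in positive cells and 0.05 and 0.08 in negative cells, 1.34-fold higher (0.42 ± 0.08, adjusted p = 0.0274; 0.0857 to 0.136 with 1 array left out). Beta-catenin itself, Ctnnb1, had 3.94 and 3.99 in positive cells and 3.71 and 3.74 in negative cells and did not pass (0.24 ± 0.08, adjusted p = 0.0914; 0.0270 with an intensity trend). Both differences were small beside those of Lef1 and Tcf7l1.

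The targets and feedback genes did not move as one. Axin2, a feedback inhibitor widely used as a readout of the pathway, had -0.76 and -0.67 in positive cells and -1.33 and -1.24 in negative cells, 1.49-fold higher (0.57 ± 0.09, adjusted p = 0.0165). Its call ended without any 1 array (0.0565 to 0.0923), and its second probe gave 0.46 ± 0.16 (probe adjusted p = 0.0926). Apcdd1, a membrane inhibitor and target, had -3.39 and -3.43 in positive cells and -1.04 and -0.89 in negative cells, 5.46-fold lower (-2.45 ± 0.10, adjusted p = 6.63e-04). Nkd1, which binds Dishevelled, had 0.96 and 1.04 in positive cells against 1.96 and 2.11 in negative cells, 2.05-fold lower (-1.04 ± 0.10, adjusted p = 0.00463). A second Nkd1 probe gave a smaller difference, -0.53 ± 0.09 (probe adjusted p = 0.0200). Lef1, Lgr5 and Rnf43, named above as targets, were lower too, while Znrf3, the ligase related to Rnf43, did not pass (-0.03 ± 0.09). Of 13 tested targets among the further pathway genes described below, 3 were higher (23.1%) and 4 lower (30.8%), against 20.7% and 18.3% of all genes. The other 6, Sp5, Notum, Tnfrsf19, Cdx1, Fosl1 and Mmp7, did not pass. Myc, named here after its values were seen, was among the higher ones, with 2.16 and 2.33 in positive cells and 0.30 and 0.54 in negative cells (1.83 ± 0.13, adjusted p = 0.00220). Fgf20 and Trib2 (0.43 ± 0.10, adjusted p = 0.0379) were the other higher ones. The 4 lower ones were Twist1, Ccnd1 (-2.34 ± 0.11, adjusted p = 9.48e-04), Ascl2 (-1.39 ± 0.16, adjusted p = 0.00767) and Bmp4 (-1.06 ± 0.12, adjusted p = 0.00644). For Nkd2 the far probe, used in the fit, had 0.80 and 0.84 in positive cells and 1.38 and 0.95 in negative cells (-0.34 ± 0.17, adjusted p = 0.186). The near Nkd2 probe had -4.35 and -4.30 in positive cells and -2.02 and -2.05 in negative cells (-2.29 ± 0.08, probe adjusted p = 5.65e-04).

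**Figure D4:**
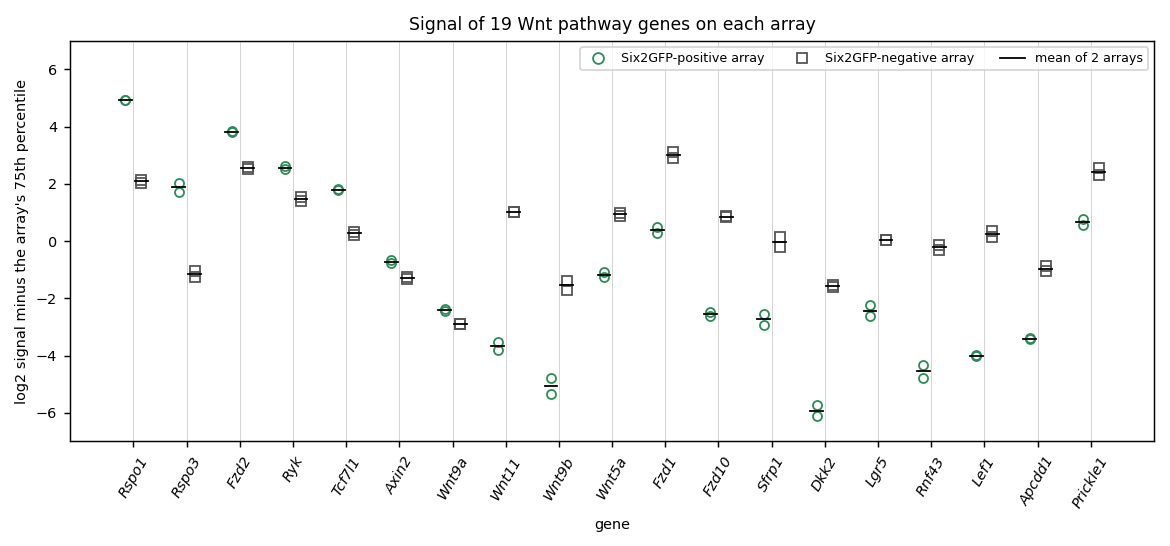
Log2 signal minus the array's 75th percentile for 19 Wnt pathway genes, with Six2GFP-positive arrays as circles left of Six2GFP-negative arrays as squares, and the mean of 2 arrays as a bar. Rspo1 and Rspo3 lie higher on the positive arrays, and Wnt11, Dkk2, Rnf43 and Lef1 lie over 4 log2 units lower; levels of different genes come from different probes and are not comparable.

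Polarity genes orient cells within the plane of a tissue and need no beta-catenin. Prickle1, a cytoplasmic member of the core polarity complex, had 0.78 and 0.56 in positive cells and 2.54 and 2.32 in negative cells, 3.38-fold lower (-1.76 ± 0.14, adjusted p = 0.00267). Vangl1, a membrane member, had 0.29 and 0.25 in positive cells and 1.10 and 1.08 in negative cells, 1.76-fold lower (-0.82 ± 0.08, adjusted p = 0.00515). Its paralogue Vangl2 did not pass, at -0.12 and -0.18 in positive cells against -0.32 and -0.31 in negative cells (0.16 ± 0.08, adjusted p = 0.202), and one of its 3 probes gave -0.20. Celsr1, an atypical cadherin, had 2.46 and 2.58 in positive cells against 2.74 and 2.78 in negative cells (-0.24 ± 0.09, adjusted p = 0.111), and was called lower with quantile normalization, normexp with quantile normalization and an intensity trend (0.0132 to 0.0467). Thus 2 of the 4 polarity genes were lower and none was higher, against 18.3% and 20.7% of all genes. With 4 genes, the counts are too small to compare with these shares. Among the 19 further polarity and calcium genes described below, 26.3% were higher and 26.3% lower.

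A further 90 Wnt pathway genes were listed from pathway knowledge, with earlier results of these data known. Of these, 81 were tested, 21 were higher and 21 lower (25.9% each), against 20.7% and 18.3% of all genes. Their median log2 difference was 0.17, against 0.15 over all genes. The largest differences upward were Fgf20 (7.03 ± 0.28, adjusted p = 6.63e-04), a growth factor of the cap that is also a target, Tpbg (2.17 ± 0.13, adjusted p = 0.00145), a membrane modulator of Lrp6, and Sost (1.97 ± 0.34, adjusted p = 0.0194), a secreted Lrp inhibitor. Fgf20 was well above background on only 1 of the 2 negative arrays. The largest downward were Dkk1 (-5.71 ± 0.28), Sox17 (-5.44 ± 0.26) and Twist1 (-4.73 ± 0.17), with adjusted p from 5.81e-04 to 9.73e-04. Dkk1, a secreted Lrp5 and Lrp6 antagonist, had -4.60 and -4.12 in positive cells and 1.06 and 1.64 in negative cells, 52.3-fold lower (adjusted p = 9.73e-04). Sox17 marks endothelium and Twist1 mesenchyme, besides their link to the pathway. Wnt4, the ligand of epithelial conversion, had -1.64 and -1.11 in positive cells and -0.04 and 0.47 in negative cells (-1.59 ± 0.27, adjusted p = 0.0194). By part of the pathway, 3 of 12 tested extracellular genes were higher and 6 lower, and of 5 ligand and secretion genes none was higher and 2 were lower. Among 18 cytoplasmic genes 5 were higher and 3 lower, among 15 nuclear genes 5 and 1, among 19 polarity and calcium genes 5 and 5, and among 13 targets 3 and 4. Notum, which did not pass, is counted both as an extracellular gene and as a target.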

How the data were processed

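RNA of 4 samples, 2 Six2GFP-positive and 2 Six2GFP-negative, was Cy3-labelled and run on the Agilent array design 026655, all 4 arrays on 1 slide and scanned together, per the labels and the file headers. The deposited scanner files hold intensity values per spot from Feature Extraction 10.7.3.1, background-subtracted and detrended within the array, per the file headers. Probe coordinates are mm9. The deposited value table holds the same intensity on a linear scale: 99.8% of probes on each array lay within 0.01 log2 of the scanner value, with array medians of 114 and 110 (positive) and 158 and 143 (negative), so it was neither log-transformed nor centred.

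Outlier spots were left out and spots of a probe averaged. Values are log2 processed signal minus the array's 75th percentile (1430 and 1410 on the positive arrays, 1604 and 1587 on the negative arrays). Between 72.5% and 79.1% of spots were well above background and 0 were saturated. Probes well above background on both arrays of a group were kept (30012). Members were named by the files' gene names, other genes through RefSeq accessions where these matched (26034 probes), and a gene was represented by its brightest kept probe, as was each of the 14 members with several. Positive and negative cells were set against each other by limma 3.58.1 under R 4.3.3 (lmFit, eBayes, two-sided), with Benjamini-Hochberg adjustment over 24150 genes; probe adjusted p-values come from a fit over 30012 single probes. Errors are limma's standard errors. The fit was tested on simulated data.

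Alternatives were other scalings (array median, quantile), normexp background correction with an offset of 50 and either scaling, the value table, no filter or background cleared on all 4 arrays, averaging each gene's probes, single probes, robust variances trended on intensity, a block for replicate number, and each array left out in turn. Array values are given for the 3 largest differences past the threshold within each role, all higher members, Six2, Cited1, Wnt4 and Dkk1, and differences for the 3 largest each way among further pathway genes; any other member may be named. Members and lists were chosen with earlier results of these data known. The labels do not say that the 2 samples of a group came from separate litters, so p-values measure the spread between these arrays, whose number limits the precision. Statements that groups did not overlap describe the printed array values. With 2 arrays in each group they are no test, and their share over all genes is not given.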

Additional observations from a re-analysis of the deposited data

How the results depend on the processing

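Every member called higher or lower kept its direction in each alternative that gave it a value; most calls that ended are given with their values in the report. Sizes were less stable: under each normexp setting the same 12 called members moved by over 1.5-fold (Wnt6, Wnt7b, Wnt9b, Wnt10a, Wnt11, Fzd6, Ror1, Sfrp4, Dkk2, Wif1, Rnf43 and Lef1), with the values given beside them, and Fzd5 did so with the mean of its probes (-1.53). Without a filter Axin1 (adjusted p = 0.0614), Tcf7l2 (0.0673), Tcf7 (0.0601) and Kremen1 (0.0732) also lost theirs, as did Tcf7 with normexp and quantile normalization (0.0549) and Kremen1 with the mean of its probes (0.106). Centring on the array median gave 14 Wnt members, 42 further pathway genes and 10810 of all genes higher. Without a filter on dim probes, 12 further pathway genes and 2618 of all genes were higher. With 1 array left out, fewer genes passed, and the numbers higher were 5 to 5 of the members, 6 to 10 of the further pathway genes and 1320 to 2163 of all genes. The members lower were 25 to 26 with 1 array left out, and between 25 and 31 in the other alternatives. The members that changed sign were short of the threshold in the reported fit and where the sign had changed: with the array median Celsr1 (0.013), Fzd9 (0.22), Wnt16 (0.11), Wnt5b (0.18) and Znrf3 (0.22); with quantile normalization Fzd9 (0.23), Lrp5 (-0.0092), Wnt16 (0.11) and Znrf3 (0.23); with normexp and the 75th percentile Fzd9 (0.048) and Znrf3 (0.054); with normexp and quantile normalization Fzd9 (0.17), Lrp5 (-0.0039), Wnt16 (0.087) and Znrf3 (0.18); and with 1 array left out Fzd9 (-0.144 to 0.083), Lgr6 (-1.42 to 0.52), Wnt10b (-0.043 to 0.92) and Znrf3 (-0.076 to 0.014); and the Vangl2 probe at transcript base 2108 (-0.20). The cause was not tested. With the replicate number as a block, 8 members were higher and 29 lower, and the call lost was Tcf7l2. Deviations of same-numbered arrays from their group means correlated at 0.22 over all genes and 0.42 over the members tested, with only 2 pairs, and the labels do not say what the number stands for. Signal over background limits Wnt2, Wnt2b, Wnt3, Rspo2 and Rspo4, which were too dim to test.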

Other observations

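Arrays of one group differed little for most Wnt pathway genes: the median absolute difference over the 55 tested members was 0.12 between the positive arrays and 0.09 between the negative arrays, against 0.12 and 0.14 over all genes. A few members were exceptions. Wnt6 and Sfrp4 were both higher on array 2 than on array 1 in each population, with log2 signals of -5.58 and -4.37 in positive cells and -2.31 and -1.45 in negative cells for Wnt6, and of -6.99 and -6.19 in positive cells and -3.60 and -2.61 in negative cells for Sfrp4. Sfrp5 had -3.76 and -5.02 on the positive arrays, and Lgr6 -4.65 and -6.59 on the negative arrays.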
